A study of Mus musculus with 16 samples.

Results

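The lipid-associated macrophage genes Lpl, Apoc2, Apoe, Fabp4, Fabp5, Plin2, Trem2, Gpnmb, Cd9 and Lipa were followed in single-cell libraries of mouse bone marrow stromal cell (BMSC) cultures. These 10 genes, of 32285 in the matrices, were chosen by name from earlier results of the same genotype comparisons, so their fold changes here describe them and are no independent evidence. The study itself named Lpl, for osteoprogenitors rather than macrophages, among genes altered by the Dmp1 deletion and corrected when Fgf23 was deleted as well. All cultures came from C57BL/6J male littermates of 12 weeks and were differentiated for 21 days with 10 mM beta-glycerophosphate. All 4 genotypes carried floxed Fgf23 alleles. WT was Dmp1+/+ without Cre, and Fgf23cKO was Dmp1+/+ with the Dmp1-cre transgene, in which the Dmp1 promoter drives Cre in osteocytes and mature osteoblasts. Dmp1KO was Dmp1-/- without Cre, and Dmp1KO/Fgf23cKO was Dmp1-/- with Dmp1-cre. The deletion of Fgf23 is therefore aimed at osteoblast lineage cells, not at the myeloid cells that make up most of these cultures.

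Lipid-associated macrophages are a state that macrophages take on in adipose tissue, atherosclerotic plaque, fatty liver and injured nerve. The receptor TREM2 senses lipids and lipoproteins at the cell surface, lipoprotein lipase frees fatty acids from triglyceride, fatty-acid-binding proteins carry them in the cytosol, perilipins coat the droplets that store them, and lysosomal acid lipase breaks down cholesteryl esters and triglycerides taken up by endocytosis. In bone marrow, Lpl and Fabp4 are also well known as adipocyte genes.

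Each genotype was run in 1 droplet reaction, in which cultures were told apart by lipid-anchored oligonucleotide tags, and effects of the reaction and of the genotype cannot be told apart. Matrices of 11 tagged cultures were used, 3 of each genotype except Dmp1KO with 2 (replicates 2 and 3); counts of Dmp1KO replicate 1 were not analysed here. The 4 samples numbered 4 hold cells without a tag and entered no comparison except as an alternative. In total 17793 cells were present, 14577 of them tagged, with 9518928 to 72482185 UMIs (unique molecular identifiers, each 1 captured transcript) per tagged culture. The median UMI count of myeloid cells was 7375 to 7815.5 in WT, 34557 to 38257 in Fgf23cKO, 20254.5 to 21736.5 in Dmp1KO and 35098 to 36348 in Dmp1KO/Fgf23cKO cultures, so depth moved with genotype and its part in the results was not tested beyond thinning the cells. Of all barcodes, 35 occurred in more than one sample and 0 in 2 samples of one genotype. Dmp1 UMIs numbered 457, 442 and 1770 in the WT cultures, 934, 1177 and 152 in Fgf23cKO, 0 and 3 in Dmp1KO, and 76, 47 and 26 in Dmp1KO/Fgf23cKO cultures, and whether the latter come from the deleted part of the gene cannot be seen in counts per gene. Fgf23 had 22 UMIs in all samples together, too few to check its deletion.

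To show the sequences from which members start, RefSeq promoters (GRCm38.p6, 250 bases before to 50 after the start, 300 in all) were read for the droplet coat gene Plin2 and the surface genes Gpnmb, Trem2 and Cd9, all 4 of which were higher in Dmp1KO than in WT myeloid cells. Capitals mark CACGTG, an E-box that MiT/TFE factors bind, and TGACTCA, an AP-1 element, searched on both strands. The Plin2 promoter (chr4:86670010-86670309, minus strand) held 1 E-box, found in 7.15% of 32851 RefSeq promoters of this length, and the Gpnmb promoter (chr6:49036268-49036567, plus strand) held 1 AP-1 element, found in 5.2%. Neither motif occurred in the Trem2 (chr17:48346151-48346450, plus strand) or Cd9 window (chr6:125494711-125495010, minus strand).
Plin2: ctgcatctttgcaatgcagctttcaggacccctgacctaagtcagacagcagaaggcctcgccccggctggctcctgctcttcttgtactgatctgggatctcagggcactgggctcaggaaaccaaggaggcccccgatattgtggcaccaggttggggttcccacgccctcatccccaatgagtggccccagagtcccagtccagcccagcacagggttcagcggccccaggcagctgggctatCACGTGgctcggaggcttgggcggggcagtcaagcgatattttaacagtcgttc
Gpnmb: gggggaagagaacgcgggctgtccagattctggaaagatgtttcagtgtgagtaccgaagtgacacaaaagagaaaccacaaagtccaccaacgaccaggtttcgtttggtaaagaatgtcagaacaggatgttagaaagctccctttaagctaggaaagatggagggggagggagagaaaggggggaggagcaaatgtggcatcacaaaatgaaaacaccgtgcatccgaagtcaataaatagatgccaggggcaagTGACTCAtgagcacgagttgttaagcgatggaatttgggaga
Trem2: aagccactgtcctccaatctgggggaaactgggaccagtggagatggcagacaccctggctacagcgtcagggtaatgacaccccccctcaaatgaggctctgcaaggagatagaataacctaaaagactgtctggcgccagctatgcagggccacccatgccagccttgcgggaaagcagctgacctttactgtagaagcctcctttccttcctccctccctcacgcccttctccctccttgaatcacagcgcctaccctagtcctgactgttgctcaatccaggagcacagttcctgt
Cd9: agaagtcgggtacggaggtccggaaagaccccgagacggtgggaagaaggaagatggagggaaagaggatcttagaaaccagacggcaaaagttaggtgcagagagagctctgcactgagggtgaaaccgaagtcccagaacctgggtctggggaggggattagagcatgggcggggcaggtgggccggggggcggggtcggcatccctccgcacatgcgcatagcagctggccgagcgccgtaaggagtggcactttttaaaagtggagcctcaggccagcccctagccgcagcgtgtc
A match or its absence describes these letters and no more. The promoters of Lpl, Fabp4 and Fabp5 are named only.

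Cells were clustered with the 10 genes left out of the clustering genes, and clusters were named from markers. Of the tagged cells, 10623 were myeloid (macrophage-like clusters 0, 1, 2, 3, 4, 7 and 15 and osteoclast-like cluster 14) and 885 were stromal-like; cycling clusters and clusters of low depth or mixed markers were left out of both classes. Levels are given as UMIs of a gene per 1000000 UMIs of the class (CPM). The 10 genes were mostly macrophage transcripts in these cultures. Over the 11 tagged cultures, 8 of 10 were higher in myeloid than in stromal cells in all 11, Lpl in 10 and Fabp4 in 6. The median stromal level was 9.44% of the myeloid level for Apoe, 9.22% for Apoc2, 8.93% for Trem2, 9.30% for Gpnmb and 11.7% for Lipa. Over the same cultures, 15 pan-myeloid markers stood at 8.42% (6.30% to 14.5%) in stromal cells, so these 5 genes sat near the level at which myeloid markers in general appeared there. Fabp5 (25.6%), Plin2 (26.2%), Lpl (45.8%), Cd9 (65.4%) and Fabp4 (96.2%) sat above it.

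In myeloid cells, Dmp1KO cultures stood apart from the other 3 genotypes for most of the 10 genes. Against WT, 8 of the 10 were higher (Lpl, Fabp4, Plin2, Fabp5, Cd9, Trem2, Apoc2 and Gpnmb) and Apoe and Lipa were lower, all past an adjusted p of 0.1 in edgeR's quasi-likelihood test over 13485 genes. The same test called 68.8% of all those genes, and since the 10 were chosen on this contrast nothing is read from their count. The median log2 fold change of the 10 was 1.32, beside 0.00 over all tested genes and a median absolute value of 0.44 over all. Before the TMM factors the median of all tested genes stood at -0.21 (log2 of the CPM ratio) in this comparison, so fitted fold changes are relative to that shift.

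**Figure D1:**
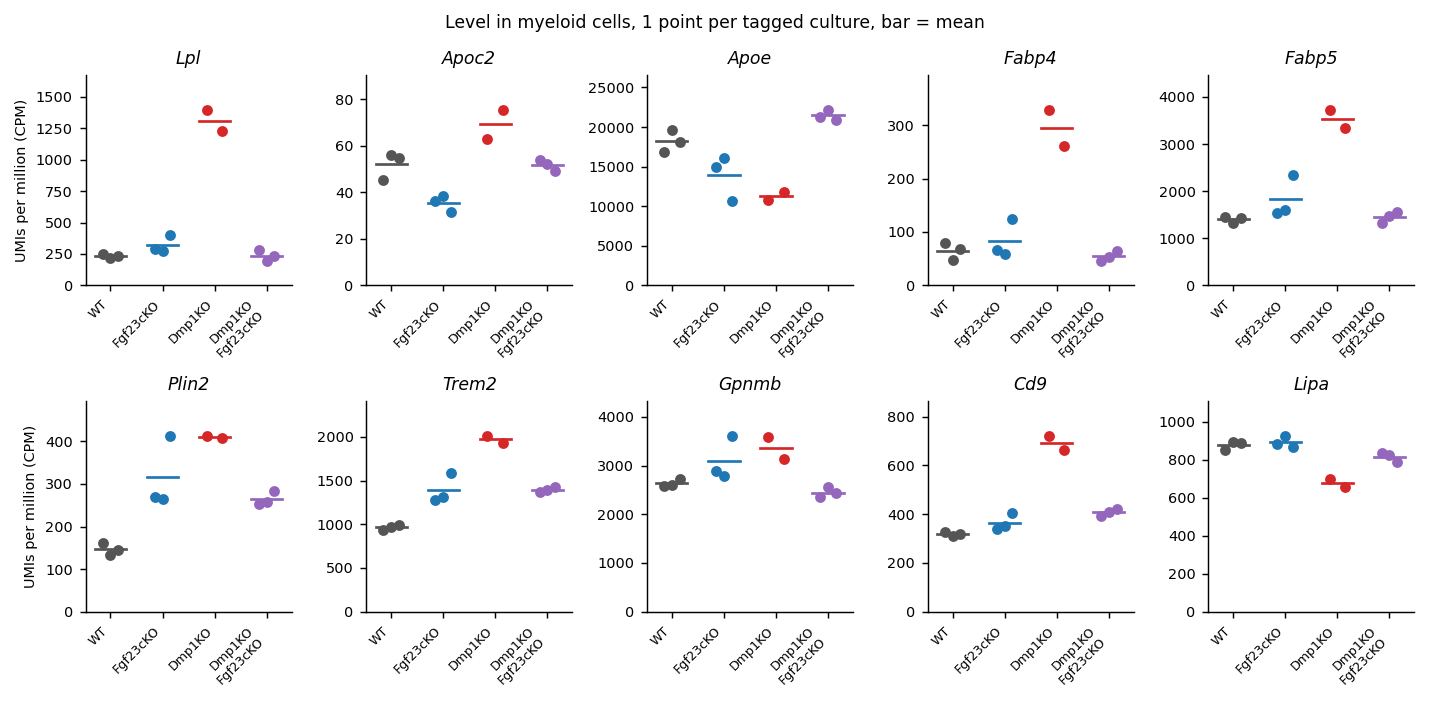
Level of each of the 10 genes in myeloid cells (CPM, linear axes from 0) by genotype, with 1 point per tagged culture and a bar at the mean. Both Dmp1KO cultures lie above all other cultures for Lpl (1226 and 1399), Fabp4, Fabp5, Trem2 and Cd9, and below all other cultures for Lipa.

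Lpl (chr8:68880491-68907448), the lipase that hydrolyses circulating triglyceride, showed the widest gap. Its level was 251.8, 217.2 and 237 CPM in the WT cultures, 287.4, 269.8 and 402.7 in Fgf23cKO, 1399 and 1226 in Dmp1KO, and 281.7, 195.9 and 234.8 in Dmp1KO/Fgf23cKO cultures. The Dmp1KO cultures thus did not overlap with any other, and the untagged Dmp1KO cells also stood high (1470, against 151.4 to 302.5 in the other untagged samples). The fitted difference from WT was 6.59-fold (log2 2.72 ± 0.16 SE, adjusted p = 6.7e-09), and 2.45% of the tested genes changed at least as much. In cells thinned to 1300 UMIs each, Lpl was detected in 57.6% and 49.4% of Dmp1KO myeloid cells and in 14.0% to 14.9% of WT cells, against 8.93% to 10.8% of thinned WT stromal cells. With both deletions the cultures overlapped with WT. Dmp1KO/Fgf23cKO differed from Dmp1KO by -2.75 ± 0.16 (log2, SE; adjusted p = 8.1e-09) and from WT by -0.03 (95% interval -0.32 to 0.26; adjusted p = 0.883). Fgf23cKO was 0.44 ± 0.15 above WT (adjusted p = 0.0273), a call that was lost without WT replicate 2 or Fgf23cKO replicate 3.

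The apolipoproteins moved less and not together. Apoc2 (chr7:19671579-19677941), the cofactor that activates lipoprotein lipase, lies on the minus strand close to Apoe. It was present at 45.08, 56.17 and 54.7 CPM in WT, 36.11, 38.19 and 31.34 in Fgf23cKO, 62.82 and 75.49 in Dmp1KO and 53.98, 52.11 and 49.09 in Dmp1KO/Fgf23cKO cultures. It was higher in Dmp1KO (0.63 ± 0.10, adjusted p = 5.1e-05) and lower in Fgf23cKO (-0.59 ± 0.10, adjusted p = 0.00028) than in WT, and its interaction of the 2 deletions was not called (-0.10, 95% interval -0.37 to 0.16). Apoe (chr7:19696109-19699188), the ligand by which lipoproteins are taken up and the main carrier of macrophage cholesterol, was by far the most abundant of the 10. It stood at 16820, 19600 and 18100 CPM in WT, 14920, 16110 and 10620 in Fgf23cKO, 10790 and 11770 in Dmp1KO, and 21290, 22190 and 20920 in Dmp1KO/Fgf23cKO cultures. Apoe was thus the gene that ran opposite to Lpl: it was lower in Dmp1KO (-0.45 ± 0.13, adjusted p = 0.00594) and in Fgf23cKO (-0.40 ± 0.11, adjusted p = 0.0101) than in WT, and higher in Dmp1KO/Fgf23cKO than in Dmp1KO (0.65 ± 0.13, adjusted p = 0.00051).

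The fatty-acid-binding proteins followed Lpl. Fabp4 (chr3:10204088-10208576), the carrier known from adipocytes and macrophages, was low in 9 cultures and high in 2. It measured 80, 46.82 and 67.16 CPM in WT, 66.46, 58.37 and 123.9 in Fgf23cKO, 329.3 and 260.7 in Dmp1KO, and 45.39, 52.48 and 64.65 in Dmp1KO/Fgf23cKO cultures. The Dmp1KO difference was 5.48-fold (log2 2.46 ± 0.26, adjusted p = 1.8e-06), and Dmp1KO/Fgf23cKO differed from Dmp1KO by -2.74 ± 0.26 (adjusted p = 6.4e-07). Adipocyte markers did not accompany it there: the summed level of 11 of them in myeloid cells was 0.199 to 0.486 CPM in Dmp1KO and 0.610 to 2.16 in the other genotypes, with Cidec, Lep, Pck1 and Slc7a10 at 0 UMIs in all tagged myeloid cells. Fabp5 (chr3:10012548-10016607), the epidermal form that macrophages also use, reached 3730 and 3338 CPM in Dmp1KO cultures and 1313 to 1452 in WT, 1533 to 2344 in Fgf23cKO and 1330 to 1560 in Dmp1KO/Fgf23cKO cultures. The Dmp1KO groups again did not overlap with the rest (1.58 ± 0.14 against WT, adjusted p = 3.3e-07). Fabp5 has processed copies elsewhere in the genome, so its counts are uncertain where reads could not be placed.

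Plin2 (chr4:86648386-86670060), the perilipin that coats lipid droplets in cells other than adipocytes, was raised in the tagged cultures of each mutant. It stood at 160.9, 134.1 and 143.8 CPM in WT, 270.4, 265 and 412.8 in Fgf23cKO, 412.9 and 407.5 in Dmp1KO, and 252, 257.7 and 284.5 in Dmp1KO/Fgf23cKO cultures. No tagged mutant culture overlapped with WT, but untagged Dmp1KO/Fgf23cKO cells stood below untagged WT cells. The difference from WT was 1.73 ± 0.15 in Dmp1KO (adjusted p = 2e-07), 1.11 ± 0.14 in Fgf23cKO (adjusted p = 2.7e-05) and 0.81 ± 0.14 in Dmp1KO/Fgf23cKO (adjusted p = 0.00023). With both genes deleted Plin2 lay between WT and Dmp1KO, with a log2 change of -0.92 ± 0.14 from the latter (adjusted p = 8.2e-05).

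Of the surface proteins, the lipid receptor Trem2 (chr17:48346401-48354147) rose in each mutant as Plin2 did. It measured 932.9, 969.5 and 993 CPM in WT, 1277, 1307 and 1585 in Fgf23cKO, 2010 and 1935 in Dmp1KO, and 1364, 1393 and 1428 in Dmp1KO/Fgf23cKO cultures. Replicates lay close together, and the differences from WT were 1.27 ± 0.08, 0.52 ± 0.07 and 0.49 ± 0.07 for Dmp1KO, Fgf23cKO and Dmp1KO/Fgf23cKO (adjusted p = 1.3e-08, 9.2e-05 and 0.0001). The tetraspanin Cd9 (chr6:125460266-125494791), an organiser of membrane proteins, measured 308.6 to 325.2 CPM in WT, 338.9 to 405.6 in Fgf23cKO, 721 and 663.2 in Dmp1KO and 390.5 to 421 in Dmp1KO/Fgf23cKO cultures. It rose by 1.37 ± 0.08 in Dmp1KO (adjusted p = 4e-09) and by 0.32 ± 0.07 with both deletions (adjusted p = 0.00189). Gpnmb (chr6:49036546-49070929), a glycoprotein of lysosomes and the surface of lipid-loaded macrophages, moved least of the 3. Its level was 2587, 2608 and 2732 CPM in WT, 2879, 2786 and 3609 in Fgf23cKO, 3583 and 3138 in Dmp1KO and 2348, 2560 and 2428 in Dmp1KO/Fgf23cKO cultures, and Fgf23cKO overlapped with Dmp1KO. The Dmp1KO difference from WT was 0.59 ± 0.10 (adjusted p = 0.00013), and 38.0% of tested genes changed at least as much.

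Lipa (chr19:34492318-34527474), which encodes lysosomal acid lipase, moved least of the 10 in Dmp1KO against WT over all myeloid cells. It stood at 853.1, 894.2 and 887.1 CPM in WT, 882.2, 924.9 and 868.6 in Fgf23cKO, 696 and 658.7 in Dmp1KO, and 833.6, 825.9 and 785.2 in Dmp1KO/Fgf23cKO cultures. Both Dmp1KO cultures were the lowest, but after TMM scaling the difference from WT was -0.14 ± 0.06 (adjusted p = 0.0451), and 81.6% of tested genes changed at least as much. That call was lost without WT replicate 2, WT replicate 3 or Dmp1KO replicate 3, and the difference was -0.03, -0.04 and -0.03 without a filter on low counts, with the 10 genes among the clustering genes and at resolution 1.2, none of which passed. In fits by cluster, chosen after seeing the data, the fall was larger. It was -0.59 without cluster 2 (adjusted p = 4.3e-07) and -0.57 without clusters 2 and 4 (adjusted p = 5e-08). Within cluster 1 it was -0.70 (adjusted p = 5.7e-06) and within cluster 7 -0.76 (adjusted p = 1.3e-05). Relative to Dmp1KO, Lipa did not pass the test in Dmp1KO/Fgf23cKO cells (-0.02, 95% interval -0.13 to 0.09).

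**Figure D2:**
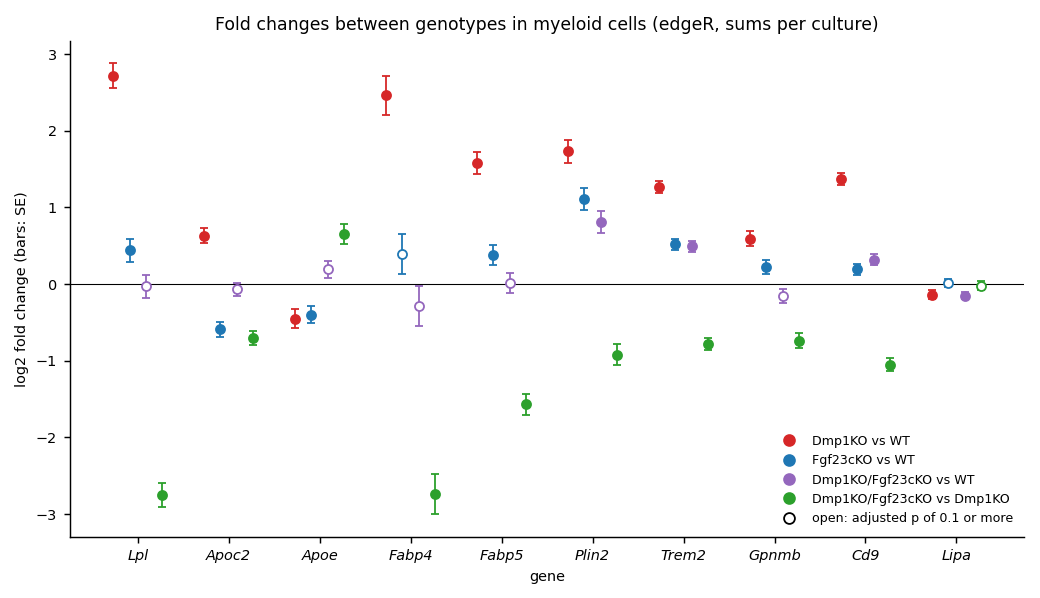
Log2 fold change of each gene in myeloid cells with its standard error in 4 comparisons, filled where the adjusted p was under 0.1. Lpl and Fabp4 show the widest swing, from 2.72 and 2.46 in Dmp1KO against WT to -2.75 and -2.74 in Dmp1KO/Fgf23cKO against Dmp1KO, and Apoe runs the other way.

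The study bred both deletions into one mouse to ask which changes of the Dmp1 deletion depend on FGF23. Comparisons with WT share the WT cultures, Dmp1KO/Fgf23cKO against Dmp1KO shares the Dmp1KO cultures with Dmp1KO against WT, and the comparisons of Dmp1KO/Fgf23cKO share its cultures, so their values are given side by side. In Fgf23cKO against WT, 8 of the 10 genes passed the test (6 higher, 2 lower), beside 49.7% of all genes. That count fell to 4 (Plin2 and Trem2 higher, Apoc2 and Apoe lower) without WT replicate 2 or without Fgf23cKO replicate 3, to 4 in thinned cells and to 5 at resolution 1.2. In Dmp1KO/Fgf23cKO against WT, 4 passed (Plin2, Trem2 and Cd9 higher, Lipa lower), beside 57.3% of all genes. In Dmp1KO/Fgf23cKO against Dmp1KO, 9 passed (8 lower, with Apoe higher), beside 65.7% of all genes. Whether the change with the Dmp1 deletion differed by Fgf23 deletion was tested by an interaction term, which 8 of the 10 passed, beside 61.6% of all genes. It was -3.19 ± 0.22 for Lpl, -3.13 ± 0.36 for Fabp4, -2.03 ± 0.20 for Plin2 and -1.94 ± 0.19 for Fabp5 (adjusted p = 6.4e-08, 6.2e-06, 1.5e-06 and 1.5e-06), -1.30 for Trem2, -1.24 for Cd9 and -0.96 for Gpnmb, and 1.05 ± 0.17 for Apoe (adjusted p = 0.00012). Apoc2 and Lipa did not pass. The median of the 10 was -1.27, beside -0.02 over all tested genes.

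Macrophage-like cells were spread unevenly over clusters by genotype, with cluster 1 the largest in both Fgf23cKO and Dmp1KO/Fgf23cKO, and the 10 genes differed widely between those clusters. Cluster 0 held 79.0% of WT myeloid cells (75.9% to 81.4% by culture) and under 2.4% in every other culture. Cluster 1 held 52.3% of Fgf23cKO (33.3% to 66.8%), 16.8% of Dmp1KO and 76.4% of Dmp1KO/Fgf23cKO myeloid cells. Clusters 2, 3 and 4 held 29.9%, 25.0% and 21.2% of Dmp1KO myeloid cells. Cluster 7, with Slc7a11, Clec4e and Mmp12 among its leading genes, occurred in all genotypes, from 1.77% in Dmp1KO to 25.1% in Fgf23cKO. Since each genotype was 1 reaction, a cluster mostly of 1 genotype cannot be told apart from that reaction. Fgf23cKO replicate 3, the culture with the lowest share of cluster 1, held 13.2% of cluster 3 and 16.6% of cluster 4, and it was also the Fgf23cKO culture with the highest Lpl, Fabp4, Fabp5, Plin2, Trem2, Gpnmb and Cd9.

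**Figure D3:**
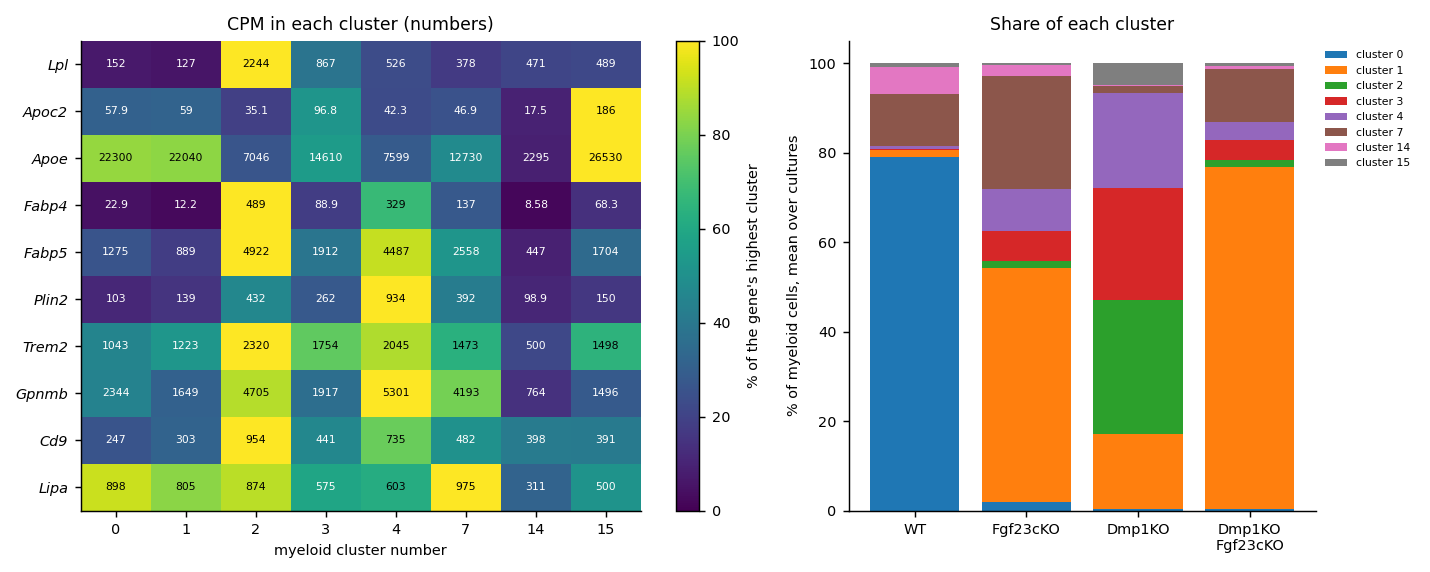
Left, CPM of each gene in the 8 myeloid clusters (numbers), coloured as a percent of the gene's highest cluster; right, the share of each cluster among myeloid cells, as the mean over tagged cultures of a genotype. Lpl is highest in cluster 2 (2244), Plin2 and Gpnmb in cluster 4 over all genotypes together (within Dmp1KO, Gpnmb is higher in cluster 2), and clusters 2, 3 and 4 are found mostly in Dmp1KO.

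Cluster 2, led by Itgax, Mfge8 and Mmp12, carried, with cells of all genotypes together, the highest Lpl of the clusters (2244 CPM, a UMI in 99.9% of its cells), and the highest Fabp4 (488.9), Fabp5 (4922), Trem2 (2320) and Cd9 (954.5). Cluster 3, led by Fgf13, Cd14 and Pcdh7, had Lpl at 866.8 but Fabp4 at only 88.9 CPM. Cluster 4, led by Atp6v0d2, Ddit3, Trib3 and Lgals3, combined a moderate Lpl (525.8) with the highest Plin2 (934.3) and Gpnmb (5301) and with Fabp4 at 329.1. Lpl and the droplet gene Plin2 thus peaked in separate clusters, also within Dmp1KO (Lpl at 2245 in cluster 2 and 546.6 in cluster 4, Plin2 at 428.2 and 789.2, means of 2 cultures). For Gpnmb the order turned within Dmp1KO, with 4401 and 4669 CPM in cluster 2 and 4250 and 4303 in cluster 4, while the few cluster 4 cells of Fgf23cKO (97) and Dmp1KO/Fgf23cKO (66) averaged 8095 and 8114. Apoe ran opposite, with 7046 and 7599 CPM in clusters 2 and 4 against 22300 and 22040 in clusters 0 and 1, and 26530 in cluster 15, whose leading genes were those of antigen presentation (H2-Aa, Cd74). Cluster 15 was mostly of Dmp1KO (214 cells, Apoe at 28110, mean of 2 cultures). In WT the order turned, with Apoe at 7474 in cluster 15 (22 cells in 2 cultures) and 22090 in cluster 0. Osteoclast-like cells (cluster 14, 212 cells in WT cultures) had Lpl at 499 ± 34.7 CPM (SD, n = 3) but Fabp4 at only 11.4 ± 13.3, Gpnmb at 854 ± 105 and Apoe at 2551 ± 245.

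Clusters 1 and 7 were the 2 large enough in every genotype to be compared. Within both, Lpl, Fabp4, Gpnmb, Fabp5, Plin2 and Cd9 were not called higher in Dmp1KO than in WT. Fabp5, Plin2 and Cd9 did not pass in cluster 1 (0.09, 0.36 and 0.03, adjusted p = 0.807, 0.466 and 0.937). In cluster 7, Fabp5 (-0.55, adjusted p = 0.00017) and Cd9 (-0.43, adjusted p = 0.0138) were lower and Plin2 did not pass (-0.01, adjusted p = 0.988). In cluster 1, Lpl was 458 ± 134 CPM in WT (56 cells in 3 cultures), 150 ± 10.97 in Fgf23cKO, 212 ± 29.8 in Dmp1KO (n = 2) and 93.4 ± 3.31 in Dmp1KO/Fgf23cKO cultures. There Lpl was lower in Dmp1KO than in WT (-1.06, adjusted p = 2.2e-05), as were Gpnmb (-0.74, adjusted p = 9.4e-05) and Lipa (-0.70), while Fabp4 did not pass (-1.07, adjusted p = 0.427), and Apoc2 (1.08, adjusted p = 0.0294) and Trem2 (0.49, adjusted p = 0.00029) were higher. The difference of Lpl between Dmp1KO/Fgf23cKO and Dmp1KO kept its direction in cluster 1 (-1.18, adjusted p = 2.1e-11), but of the 9 genes called there 7 were higher and 2 lower (Lpl and Apoc2), against 1 higher and 8 lower in all myeloid cells. In cluster 7, Fabp4 was 298 ± 48.7 CPM in WT and 102 ± 60.8 in Dmp1KO (-1.67, adjusted p = 0.00048), Gpnmb was lower as well (-0.99, adjusted p = 1.2e-08) and Lpl did not pass (-0.31, adjusted p = 0.431); Apoe was the 1 gene called higher there (0.26, adjusted p = 0.0799). Without clusters 2 and 4, Lpl was still higher in Dmp1KO than in WT (1.58, adjusted p = 2.9e-08), as were Trem2 (0.75) and Plin2 (0.68), whereas Gpnmb was lower (-0.61, adjusted p = 2.7e-06). These fits by cluster were chosen after seeing the data.

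Cell by cell, the 10 genes did not form 1 block. Correlations were taken over myeloid cells of each culture thinned to 1300 UMIs, and are given as the median of 11 cultures with their range; cells of a culture share its library, and at this depth a low correlation says little. The closest pair was Fabp5 and Gpnmb (r = 0.387, 0.337 to 0.453), followed by Fabp4 and Fabp5 (0.262, 0.226 to 0.335), Fabp4 and Gpnmb (0.208, 0.131 to 0.244) and Fabp4 and Plin2 (0.172, 0.0407 to 0.223). Each of these was positive in all 11 cultures. Lpl was less tied to them: its median was 0.147 with Gpnmb, 0.143 with Cd9 and 0.0904 with Fabp4 (-0.024 to 0.186). Apoe was negative in all 11 cultures with Plin2 (-0.232), Lpl (-0.202), Cd9 (-0.137) and Fabp4 (-0.125). Of 45 pairs, 32 had a positive median, and 35 had one at full depth. At full depth the values were larger, 0.653 for Fabp5 and Gpnmb and -0.429 for Apoe and Plin2, but there they also share the depth of each cell.

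**Figure D4:**
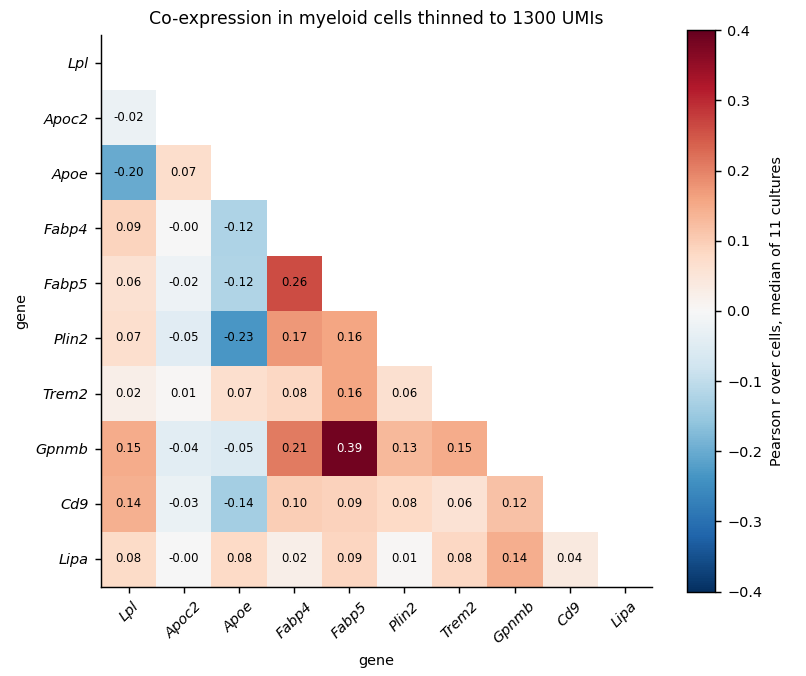
Pearson correlation between each pair of genes over myeloid cells thinned to 1300 UMIs, as the median of 11 tagged cultures. Fabp4, Fabp5, Gpnmb and Plin2 are positively correlated with each other, up to 0.39. Apoe is negatively correlated with Lpl, Fabp4, Plin2 and Cd9 in all 11 cultures. With Fabp5 its median is negative, but the WT cultures are positive (0.0374 to 0.0849).

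The genotypes differed in which pairs went together. The correlation of Lpl with Fabp5 averaged -0.0166 over the WT cultures (-0.0552 to 0.0269) and 0.213 over the Dmp1KO cultures (0.195 to 0.23), and that of Lpl with Trem2 averaged -0.013 and 0.201. Apoe and Gpnmb averaged 0.119 in WT (0.0936 to 0.149) and -0.255 in Dmp1KO (-0.268 to -0.242). Fabp5 and Gpnmb by contrast were alike in all 4 genotypes (means of 0.357 to 0.413). Among thinned Dmp1KO cells, Fabp4 was detected in 26.3% and 22.0% of those with Lpl and in 13.3% and 9.90% of those without. In WT both shares lay between 3.48% and 7.37%. A higher share with Lpl was not particular to Dmp1KO. In Dmp1KO/Fgf23cKO cultures the shares were 11.8%, 9.59% and 8% with Lpl and 2.21%, 3.76% and 4.14% without. In Fgf23cKO cultures they were 7.55%, 10.2% and 11% with Lpl and 2.81%, 2.6% and 9.32% without. Cells in which at least 8 of the 10 genes had a UMI made up 14.0% and 11.8% of thinned Dmp1KO myeloid cells, against 1.08% to 1.35% in WT, 1.79% to 3.43% in Fgf23cKO and 1.10% to 2.90% in Dmp1KO/Fgf23cKO cultures. The median cell had a UMI for 4 of the 10 genes in WT, 6 in Dmp1KO and 5 in the other genotypes. The 10 genes were chosen on these genotypes, and most were higher in Dmp1KO. Such counts of genes per cell rise with the level of each gene, and the share to be found without co-expression was not computed. They are therefore not read as co-expression.

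The genes most like each member were sought among 3381 genes of at least 50 CPM by the mean correlation over the 11 cultures. Lpl was most like Mmp12 (0.269), the macrophage elastase, then Pcdh7 (0.223) and Itgax (0.203), the integrin CD11c. Fabp4 (0.242), Fabp5 (0.419), Plin2 (0.298) and Gpnmb (0.384) were each most like Lgals3, which encodes galectin-3. Apoe was most like the complement genes C1qa (0.508) and C1qb (0.473), Apoc2 like C1qb (0.0755), Trem2 like Ctsd (0.183), Cd9 like Mmp12 (0.205) and Lipa like Prdx1 (0.138).

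Other genes of lipid handling were read from lists by role (107 of the listed genes were in the matrices), given here for Dmp1KO against WT in myeloid cells beside the 68.8% of all genes called there. Of 19 further genes of the lipid-associated macrophage state, 16 were higher and 1 lower, with a median log2 fold change of 0.95. Itgax rose from 17.6 to 238 CPM (mean; 4.03 ± 0.24), the matrix phosphoprotein gene Spp1 from 1449 to 10290 (3.07 ± 0.11), the macrophage growth factor gene Csf1 from 5.32 to 33.1 (3.01 ± 0.22) and Lgals3 from 2168 to 11600 (2.66 ± 0.21; adjusted p = 7.7e-09, 1.3e-10, 4.5e-08 and 1e-07). In Dmp1KO/Fgf23cKO against Dmp1KO, 17 of these 19 were lower and 1 higher (beside 65.7% of all genes called there, 36.6% lower), among them Itgax (-3.64) and Spp1 (-2.80). Several of these genes also lead cluster 2 or 4. Of this list, Itgax, Mmp12, Atp6v0d2, Acp5 and Ctsk were also markers used to name clusters. Cluster 2 entered the myeloid class through Itgax and Mmp12, and cluster 4 through Atp6v0d2. The values of these genes in that class are therefore not independent of how it was defined.

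Of 8 genes of fatty acid handling, 6 rose and 2 fell, among them the droplet protein gene Hilpda (1.97 ± 0.20) and the heart-type carrier Fabp3 (1.69 ± 0.14). Of 7 droplet and lipolysis genes, 5 rose and 0 fell: the monoglyceride lipase gene Mgll rose from 0.987 to 19.6 CPM (4.64 ± 0.54), the lipase coactivator Abhd5 by 1.46 ± 0.14 and Plin3 by 1.37 ± 0.08. Lipid uptake receptors went the other way, with 6 of 10 lower and 2 higher: Vldlr fell from 2.33 to 0.144 CPM (-3.67 ± 0.44), and the receptors for apoptotic cells Axl (-1.24 ± 0.14) and Mertk (-0.95 ± 0.12) fell as well. Olr1 rose from 0.566 to 1.11 CPM (1.14 ± 0.47), and the scavenger receptor Cd36 did not pass (-0.05 ± 0.08). Of 15 lysosomal genes, 7 rose and 6 fell, with Ctsl, a cathepsin, at 2.34 ± 0.14 and the lysosomal phospholipase gene Pla2g15 at -1.28 ± 0.10. Of 7 sterol efflux genes, 4 rose and 3 fell, with the cholesterol transporter Abca1 at -0.69 ± 0.09 and the oxysterol synthase gene Ch25h at -0.99 ± 0.21. Nr1h3 was among those that rose (0.58 ± 0.10).

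Of 9 PPAR and MiT/TFE regulators, 5 rose and 4 fell. The lipid-activated nuclear receptor gene Pparg went from 25.5 to 64.8 CPM (1.63 ± 0.18), and of the MiT/TFE family Tfeb rose (1.08 ± 0.10) while Tfec fell (-1.38 ± 0.10). Of 10 genes of TREM2 signaling, 4 rose and 5 fell: the adaptor Tyrobp rose by 0.44 ± 0.05, whereas Ms4a4a (-1.48 ± 0.14) and Ms4a7 (-0.98 ± 0.07), members of a membrane family linked to TREM2, fell. Of 6 further cofactors and inhibitors of lipoprotein lipase 4 rose and 2 fell, and of 7 tetraspanins other than Cd9 3 rose and 3 fell. A raised Cd9 was thus not shared by Cd81 (-0.74 ± 0.09) or Cd82 (-0.52 ± 0.11), while Cd37 rose (0.49 ± 0.09).

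In stromal cells most of the 10 did not pass the test. Plin2 and Trem2 were higher in Dmp1KO than in WT (2 of 10, beside 24.6% of 12399 tested genes), and 1 of 10 passed in each other comparison: Plin2 in Fgf23cKO (beside 15.1%) and in Dmp1KO/Fgf23cKO against WT (beside 19.8%), and Trem2 in Dmp1KO/Fgf23cKO against Dmp1KO (-0.94, adjusted p = 0.0981, beside 10.2%), a call kept in 3 of 11 fits that left out 1 culture each and lost in thinned cells, at resolution 0.4 and in either stromal cluster alone. The interaction was called for Plin2 and Trem2 (beside 18.1%). Stromal Plin2 was 53.1, 35.1 and 46.2 CPM in WT, 71.9, 76.2 and 97.7 in Fgf23cKO, 90.7 and 96.6 in Dmp1KO, and 88.5, 59.6 and 58.4 in Dmp1KO/Fgf23cKO cultures. WT did not overlap with any mutant, and the differences were 0.77 ± 0.19 (adjusted p = 0.0279), 0.93 ± 0.21 (adjusted p = 0.0109) and 0.51 ± 0.19 (adjusted p = 0.0946). The last passed in 3 of 11 fits that left out 1 culture each. In cluster 9 alone Plin2 passed neither in Dmp1KO (0.16, adjusted p = 0.883) nor in Fgf23cKO (0.24, adjusted p = 0.787). In cluster 11 alone it passed in Dmp1KO (0.78, adjusted p = 0.0771) but not in Fgf23cKO (0.64, adjusted p = 0.119). Stromal clusters 13 and 16 held 19.6% and 19.8% of WT but 2.4% and 2.4% of Dmp1KO stromal cells, and the part of this shift was not tested. Stromal Trem2 was 64.5, 119.5 and 118.2 CPM in WT and 275.4 and 167.6 in Dmp1KO cultures (1.01 ± 0.32, adjusted p = 0.0493), a call lost without WT replicate 1 or Dmp1KO replicate 2, at resolution 0.4, in cluster 9 alone and in thinned cells (0.75, adjusted p = 0.163); it was 146.6, 98.9 and 210.2 in Fgf23cKO and 121.8, 101.7 and 115.4 in Dmp1KO/Fgf23cKO cultures. The pan-myeloid markers in the same stromal cells ranged from 2187 to 4430 CPM in WT and from 2498 to 4319 in Dmp1KO cultures. The summed macrophage markers ranged from 1164 to 2043 CPM in WT and from 1157 to 1979 in Dmp1KO cultures. Of single macrophage markers, Itgax (1.477 to 25.02 CPM, 4.29 ± 0.76) and Mmp12 (9.624 to 179.8 CPM, 4.15 ± 0.58) were higher in Dmp1KO stromal cells. Ms4a7 (176.3 to 65.09 CPM, -1.56 ± 0.43) and Mertk (67.18 to 27.61 CPM, -1.45 ± 0.32) were lower there. Stromal Plin2 was 20.5% to 35.1% of the myeloid level of the same culture, beside 6.3% to 14.46% for the pan-myeloid markers. Plin2 was also higher than WT in the myeloid cells of each mutant. The part of myeloid transcripts in stromal Plin2 and Trem2 was not tested.

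**Figure D5:**
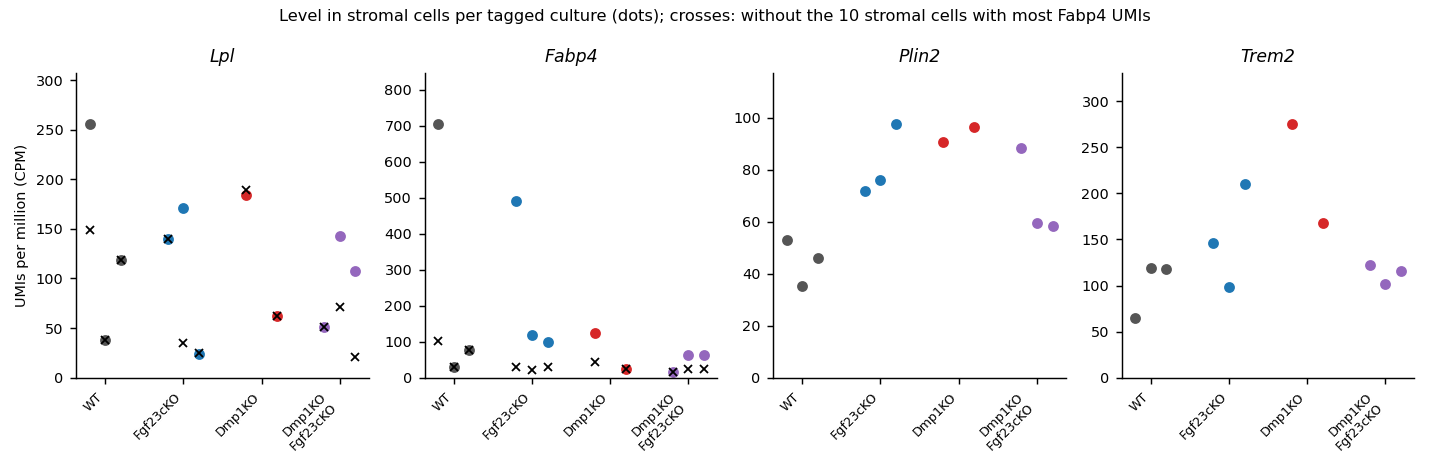
Stromal level (CPM) of Lpl, Fabp4, Plin2 and Trem2 by genotype, 1 dot per tagged culture; crosses give Lpl and Fabp4 without the 10 stromal cells with the most Fabp4 UMIs. Fabp4 of WT replicate 1 goes from 704.7 to 102 and that of Fgf23cKO replicate 1 from 489.8 to 29.1 without those cells.

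Stromal Fabp4 and Lpl rested on few cells. Fabp4 was 704.7, 30.7 and 77.6 CPM in WT, 489.8, 117.2 and 99.2 in Fgf23cKO, 124.4 and 25.3 in Dmp1KO and 14.98, 62.0 and 62.2 in Dmp1KO/Fgf23cKO cultures. Of 5046 Fabp4 UMIs in 885 stromal cells, 1 cell of Fgf23cKO replicate 1 held 38.6%, that cell and 1 of WT replicate 1 held 55.3%, and 10 cells held 78.8%. Those first 2 cells had UMIs for 7 and 8 of the 11 adipocyte markers, including Adipoq (8 and 36) and Plin1 (20 and 66). Without the 10 cells Fabp4 was 30.7 to 102 CPM in WT and 14.98 to 44.2 in the other genotypes. For Lpl, 10 cells held 60.1% of 4050 UMIs, and its stromal level of 23.6 to 255.9 CPM overlapped between all genotypes. Neither gene passed the test in any comparison of all stromal cells at full depth; in thinned cells Fabp4 (-2.85, adjusted p = 0.0736) and Apoe (-0.90, adjusted p = 0.00806) were lower in Dmp1KO than in WT and no member was higher, with Apoc2 and Plin2 not fitted. Within stromal cluster 9 alone, a fit chosen after seeing the data, Lpl was lower than in WT in Fgf23cKO (-4.67 ± 0.82, adjusted p = 0.00441) and in Dmp1KO/Fgf23cKO (-6.80 ± 0.95, adjusted p = 0.00048). Dmp1KO against WT did not pass there (-2.15 ± 0.77, adjusted p = 0.114), and Dmp1KO/Fgf23cKO was lower than Dmp1KO (-4.66 ± 1.01, adjusted p = 0.0479). In that cluster, 1 cell of WT replicate 1, with UMIs for 8 adipocyte markers, held 153 Lpl UMIs, and its part in the differences from WT was not tested. Stromal Cd9 was 193.6 to 217.0 CPM in WT and 221.5 to 362.9 in the mutant cultures, which did not overlap, but no comparison passed (Fgf23cKO 0.38 ± 0.16, adjusted p = 0.176).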

How the data were processed

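BMSC cultures were trypsinised, live cells were sorted and pooled with sample tags, and single-cell libraries were made per genotype. The deposited values are UMI counts per gene and cell. Per the file headers they come from Cell Ranger 7.0.1, and the submitters' processing notes name the mm10 build and Seurat; read filters are not given in the sources used here. From these counts, cells were clustered with Seurat 5.3.0 and sctransform 0.4.2 (3000 variable genes without the 10 genes, 30 principal components, resolution 0.8) with no further filter on cells. No doublet caller was run: tagged matrices hold cells that the authors assigned to 1 tag, and doublets of 1 culture remain possible. For each tagged culture, the counts of a class (at least 10 cells) were added up and tested with edgeR 4.0.16 (TMM, filterByExpr, quasi-likelihood test, Benjamini-Hochberg over all genes tested, threshold 0.1), with all 4 genotypes in 1 fit. The scripts were tested on simulated data. The 10 genes, the lists by role and the markers were chosen with earlier results of these data known. All 10 genes are named. For each list, up to 4 called genes with the largest change whose cultures did not overlap were picked, and not all of these are named. Cd36 and Tyrobp were added after their values were seen. The study describes cells from 3 mice of each genotype, but the labels do not tie a culture number to a mouse, so p-values measure the spread between these cultures, which may be technical. Same-numbered cultures did not deviate together (15 pairs, correlation of -0.458 to 0.268, median -0.0396), so numbers were not used as pairs. Alternatives tried were RLE scaling, no filter, DESeq2 1.42.0, a threshold of 0.05, a replicate block, leaving out each culture, including untagged cells, cell filters (500 genes, 20% mitochondrial UMIs), thinning to 1300 UMIs, other resolutions (0.4 and 1.2) and class definitions, sums of at least 20 cells, and fits by cluster.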

Additional observations from a re-analysis of the deposited data

Results flagged for a closer look

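In 8 of the 10 genes the change with the Dmp1 deletion in myeloid cells differed between cultures with and without the Fgf23 deletion, by the interaction term of the edgeR fit over all genes. The log2 interaction was -3.19 for Lpl, -3.13 for Fabp4, -2.03 for Plin2, -1.94 for Fabp5, -1.30 for Trem2, -1.24 for Cd9 and -0.96 for Gpnmb, and 1.05 for Apoe. Of all genes tested in myeloid cells, 61.6% passed the same term. In stromal cells the term passed for Plin2 (-1.19) and Trem2 (-1.44), 2 of 10 genes beside 18.1% of all genes tested there. Within cluster 1 the interaction was 0.36 for Lpl and within cluster 7 it was 0.30.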

How the results depend on the processing

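Of 2585 values of single genes under alternatives, 2351 kept their direction and side of the threshold (118 of them, called in neither fit, changed sign), 88 lost and 82 gained a call, and 64 reversed. A reversed value changed sign and was called in the main fit, the alternative or both. In myeloid cells, thinning and resolution 1.2 left 4 and 5 of the 10 genes called in Fgf23cKO against WT, where 8 were called, and thinning reversed Fabp5 in Dmp1KO/Fgf23cKO against WT (-0.21). Leaving out 1 culture gave 4 to 9 called genes in Fgf23cKO against WT (4 without WT replicate 2 or Fgf23cKO replicate 3) and, in stromal cells, 1 to 3 in Dmp1KO against WT (1 without Dmp1KO replicate 2), 1 to 2 in Fgf23cKO against WT, 0 to 2 in both Dmp1KO/Fgf23cKO comparisons and 1 to 3 in the interaction. In stromal cells, with 2, 1, 1, 1 and 2 genes called in Dmp1KO, Fgf23cKO and Dmp1KO/Fgf23cKO against WT, in Dmp1KO/Fgf23cKO against Dmp1KO and in the interaction, counts moved as follows: without a filter 2, 3, 2 and 4 in the last 4; with DESeq2 0 in Dmp1KO/Fgf23cKO against WT and 2 against Dmp1KO; with untagged cells 4, 2, 2, 5 and 4; thinned 2, 2 and 0 in the middle 3; at resolution 0.4 2 in Dmp1KO/Fgf23cKO against WT and 1 in the interaction; at a threshold of 0.05 0 in both Dmp1KO/Fgf23cKO comparisons. The replicate block, as a term for shared numbers only, called 10, 8, 4, 9 and 8 genes in the 5 myeloid comparisons, as without it. By cluster (chosen after seeing the data), myeloid counts in the same order were 5, 4 and, for the interaction, 4 in cluster 1; 6, 8, 4 and 4 in cluster 7 for Dmp1KO against WT, both Dmp1KO/Fgf23cKO comparisons and the interaction; and 9 in Dmp1KO/Fgf23cKO against WT without clusters 2 and 4. Stromal counts were 0, 2, 3, 2 and 1 in cluster 9, and 0 in the middle 3 in cluster 11. Beside the counts of 0, the genes at an unadjusted p under 0.05 numbered 4 with DESeq2, 2 thinned, 3 in each comparison at the threshold of 0.05, 3 in cluster 9, and 1, 1 and 4 in cluster 11, by edgeR except as named. Fits that left out 1 culture and called 0 had 0 to 3 such genes in Dmp1KO/Fgf23cKO against Dmp1KO (7 fits) and 2 to 3 against WT (6 fits). By these fits Plin2 in stromal Dmp1KO/Fgf23cKO against WT reversed in cluster 9 (-0.29).

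These log2 values reversed in myeloid cells. Some were near 0 or did not pass in the cluster fit. In cluster 7 these included Plin2 in Dmp1KO against WT (adjusted p = 0.988) and the interaction of Lpl (adjusted p = 0.641). Each such fit has other cells by construction, and the cause was not tested. Dmp1KO against WT in cluster 1: Lpl -1.06, Fabp4 -1.07, Gpnmb -0.74, Apoe 0.13. In cluster 7 they were Lpl -0.31, Fabp4 -1.67, Fabp5 -0.55, Plin2 -0.01, Gpnmb -0.99, Cd9 -0.43 and Apoe 0.26, and without clusters 2 and 4 Gpnmb -0.61 and Apoe 0.01. Fgf23cKO against WT gave in cluster 1 Lpl -1.55, Gpnmb -0.07, Cd9 -0.19 and Apoe 0.28, in cluster 7 Lpl -0.57, Fabp4 -1.94, Fabp5 -0.28, Plin2 -0.41, Gpnmb -0.50, Cd9 -0.85, Lipa -0.27 and Apoe 0.42, and without clusters 2 and 4 Fabp4 -0.81, Fabp5 -0.09, Gpnmb -0.07 and Cd9 -0.01. Dmp1KO/Fgf23cKO against WT gave Fabp5 -0.20 and Cd9 -0.67 in cluster 7, and Fabp5 -0.19 without clusters 2 and 4. Dmp1KO/Fgf23cKO against Dmp1KO gave in cluster 1 Fabp5 0.30, Plin2 0.41, Trem2 0.29, Gpnmb 0.59, Cd9 0.26 and Lipa 0.54, in cluster 7 Fabp4 0.41, Fabp5 0.35, Plin2 0.15, Trem2 0.51 and Gpnmb 0.35, and without clusters 2 and 4 Gpnmb 0.24 and Lipa 0.42 (0.41 without cluster 2). The interaction gave in cluster 1 Lpl 0.36, Fabp4 1.21, Fabp5 0.13, Gpnmb 0.66, Cd9 0.44 and Lipa 0.54, in cluster 7 Lpl 0.30, Fabp4 2.36, Fabp5 0.64, Plin2 0.57, Gpnmb 0.85, Cd9 0.61 and Apoe -0.06, and without clusters 2 and 4 Gpnmb 0.31 and Lipa 0.39 (0.42 without cluster 2). A fit of clusters 13 and 16 alone was not run, since too few genotypes had enough cells, and thinned stromal cells gave no value for Apoc2 and Plin2. Intervals cover the spread between cultures, and with 2 Dmp1KO cultures a difference between their levels and others was measured with less precision.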

Other observations

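Cells without a tag, which belong to no replicate, gave these levels in myeloid cells. In 367 untagged Dmp1KO cells Lpl stood at 1470 CPM, Fabp4 at 313.3, Fabp5 at 3511, Plin2 at 408.9, Trem2 at 2025, Cd9 at 693.8 and Apoe at 11800. In 233 untagged WT cells the same genes stood at 240, 54.4, 1454, 163.1, 906.8, 341.1 and 17810 CPM, and in 535 untagged Fgf23cKO cells at 302.5, 91.4, 1392, 281.8, 1336, 367.2 and 15490. In 96 untagged Dmp1KO/Fgf23cKO cells Lpl stood at 151.4, Fabp4 at 19.0, Plin2 at 147 and Apoe at 25310 CPM. Untagged cells shared the reaction of the tagged cells of their genotype.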
